A study of Mus musculus with 4 samples.

Results

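The genes described here handle vitamin A in the gut epithelium: Isx, Bco1, Rbp2, Lrat, Rdh7, Rdh10, Dhrs3, Aldh1a1 and Crabp2. They were listed by name for their part in the uptake, storage, oxidation and binding of retinoids, and they make up 9 of the 30284 genes with summed counts. Of the 13602 genes that passed the filter on low counts and were tested, 8 are on this list, and Crabp2 is not among them.

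Poly-A RNA was sequenced from organoids of the small intestine, which are 3-dimensional epithelial cultures that hold crypt and villus cell types but lack the stroma, vessels and gut contents of the organ. The GW3965 group held 2 cultures exposed for 6 h to GW3965 at 2 µM, a compound that activates the liver X receptors (LXR), nuclear receptors for oxysterols. The DMSO group held 2 cultures given the vehicle DMSO for the same 6 h. The donors were 2 C57BL/6J males, aged 9 weeks per the labels, whose crypts were grown in Matrigel. Each mouse gave 1 culture to each group, so each group had 1 library per mouse and all 4 libraries share strain and sex. The p-values for treatment rest on the spread between the 2 cultures within each group, drawn toward that of genes of like level. This fit had 2 residual and 7.78 prior degrees of freedom. The p-values leave out the pairing by mouse, except where the mouse is named as a block. With that block in edgeR the prior was infinite, so a gene's own spread does not enter its p. The p-values between the mice compare 2 animals whose cultures share the animal.

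Dietary provitamin A carotenoids are cleaved to retinal in enterocytes, and retinal is reduced to retinol or oxidised to retinoic acid. Retinol bound to a cytosolic carrier is esterified with fatty acids and leaves the cell in chylomicrons, while retinoic acid binds nuclear receptors (RAR) that pair with RXR. LXR also pairs with RXR, and retinoic acid feeds back on carotenoid uptake in mice through the homeobox factor ISX, which represses the carotenoid cleavage and uptake genes.

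Of the 9 genes, 7 had promoter windows in the RefSeq table (GRCm38.p6), each with 250 bases before and 50 bases after an annotated start. The upstream bases of Rbp2 and Bco1 are shown because these genes are, by their role, the carrier and the cleavage enzyme. Another reason is that their differences between the mice had opposite signs, though neither difference was called. Both are on the plus strand, at chr9:98490287-98490536 for Rbp2, ending 1 base before the start of its main transcript, and at chr8:117095615-117095853 for Bco1, ending 1 base before the first annotated start. Capitals mark matches, on either strand, to the half-site AGGTCA of nuclear receptors, to TATAAA, and to TTTATG, a motif of CDX factors.
Rbp2: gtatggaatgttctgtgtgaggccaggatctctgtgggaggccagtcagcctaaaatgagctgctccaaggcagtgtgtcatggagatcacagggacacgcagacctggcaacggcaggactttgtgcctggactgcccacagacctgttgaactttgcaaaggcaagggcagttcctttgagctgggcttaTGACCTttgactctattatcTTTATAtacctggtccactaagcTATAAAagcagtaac
Bco1: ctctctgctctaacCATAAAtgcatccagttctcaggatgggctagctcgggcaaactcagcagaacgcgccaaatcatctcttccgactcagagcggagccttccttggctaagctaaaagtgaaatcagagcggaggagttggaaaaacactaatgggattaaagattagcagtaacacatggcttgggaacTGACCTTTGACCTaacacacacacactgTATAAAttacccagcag
Positions are those of the leftmost base of a match, counted back from the RefSeq start, which is 98490537 for Rbp2 and 117095865 for Bco1. Bco1 held 2 half-sites on the minus strand, at -56 and -49, which together form a direct repeat, AGGTCA and again AGGTCA with 1 base between them (DR1). A DR1 match occurred in 13 of 32851 promoter windows, or 0.0396%. Rbp2 held 1 half-site at -58, also on the minus strand, and Rdh7 held 1 at -105, a motif that 16.3% of windows held. TATAAA stood at -15 and, on the other strand, at -38 in Rbp2, and at -28 in Bco1, against 13.6% of windows. No window of these 7 genes held the repeat with 4 bases between (DR4, the spacing known for LXR), which 5 windows (0.0152%) held, nor that with 5 (DR5, known for RAR) or with 2 bases (DR2), which 0.00913% held each. The GATA motif GATAAG and the HNF4 motif CAAAGTCCA were in none of them, against 7.44% and 0.475% of windows. TTTATG stood at -236 in Bco1 and at -208 in the same Rdh7 window as the half-site, against 11.9% of windows. These are exact letter matches in short windows and not measured binding sites. The letters are those of the reference build and were not read from the 2 mice. Any part of them in the differences between the mice was not tested. The 7 genes had 11 windows, and an exact DR4, DR5 or DR2 is so rare that none was to be expected there. Their absence therefore does not show whether these genes have LXR or RAR sites.

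The 9 genes spanned more than 3 orders of magnitude in level. Levels between genes are given in TPM, transcript abundance scaled to a fixed sum per library, which accounts for length. Rbp2, the cellular retinol-binding protein of enterocytes, had 714 and 1016 TPM in the GW3965 cultures of mouse 1 and mouse 2, against 870 and 1049 TPM in the DMSO cultures of mouse 1 and mouse 2. Its mean of 912 ± 153 TPM (SD, n = 4) was 89.41% of the sum over the 9 genes and stood 179th of the 13602 genes tested. Rdh10, the dehydrogenase that oxidises retinol to retinal, followed at 44.6 and 74.9 TPM with GW3965, against 54.5 and 64.3 TPM with DMSO, in mouse 1 and mouse 2, and Aldh1a1, which oxidises retinal to retinoic acid, at 32.6 ± 5.01 TPM (SD, n = 4). Each of these 3 genes was above the next in every library, with no overlap of their ranges.

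Below them, Rdh7, Dhrs3, Isx and Bco1 had close levels. Their means were 4.35 TPM for Rdh7, 3.96 TPM for Dhrs3, 3.59 TPM for Isx and 3.53 TPM for Bco1, and each range overlapped that of its neighbour in this order. Crabp2, a carrier that delivers retinoic acid to its receptor, had 0.259 ± 0.0428 TPM, and Lrat, the enzyme that esterifies retinol, had 0.175 ± 0.0759 TPM (SD, n = 4 each). The ranges of these last genes overlapped, and both lay apart from Bco1. Lrat rested on 8 and 23 estimated counts in the GW3965 libraries of mouse 1 and mouse 2, against 13 and 21 in the DMSO libraries. Crabp2 rested on 3 and 4 counts in the GW3965 libraries, against 3 and 4 in the DMSO libraries, which is why it was not tested.

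**Figure D1:**
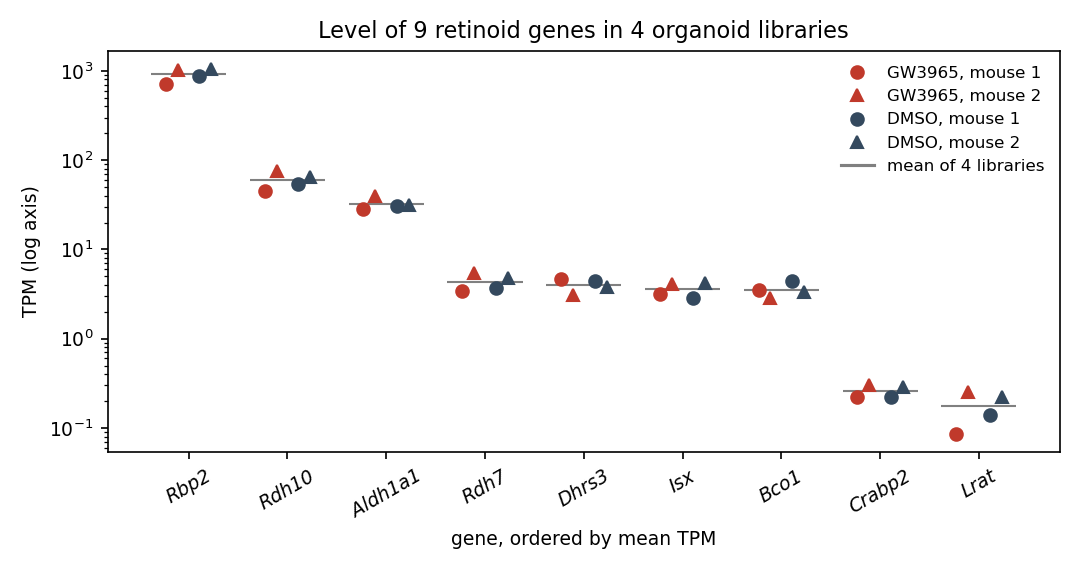
TPM on a log axis for the 9 genes, with GW3965 libraries in red and DMSO libraries in blue, mouse 1 as circles, mouse 2 as triangles and the mean of 4 libraries as a line. Rbp2 sits near 912 TPM, Rdh7, Dhrs3, Isx and Bco1 sit close together between 2.88 and 5.49 TPM, and Lrat and Crabp2 lie between 0.0862 and 0.303 TPM.

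The libraries held between 16572359 and 19486547 estimated counts. Known LXR targets served as a check of the treatment, and edgeR's quasi-likelihood test, adjusted by Benjamini-Hochberg (BH), called 6 of 10 listed LXR targets higher, among them Abca1, a sterol exporter (log2 fold change 5.54 ± 0.43 SE, adjusted p = 0.00134), Abcg1 (4.35 ± 0.25, adjusted p = 0.000157) and Srebf1, a regulator of lipid synthesis (2.53 ± 0.24, adjusted p = 0.00525). The GW3965 library of mouse 1 stood apart, with 14.01% of its counts in mitochondrial genes, against 7.60 to 9.43% in the other 3. The summed TPM of 15 immune markers was 224 there and 95.5 in the GW3965 library of mouse 2, against 126 and 116 in the DMSO libraries, with none of the 15 at 0 in all libraries. Much of this sum was Gzma alone, at 162 and 61.8 TPM in the GW3965 libraries of mouse 1 and mouse 2, against 94.6 and 76.8 TPM in the DMSO libraries. The summed TPM of 9 epithelial markers was 10291 and 18041 in the GW3965 libraries of mouse 1 and mouse 2, against 16322 and 16097 in the DMSO libraries. Of 14 mesenchyme and endothelium markers, 8 were too low to test, and the summed TPM of all 14 was 23.4 to 26.9. The part of these differences in the results was not tested, and in bulk RNA fewer cells of a type and less RNA per cell cannot be told apart. The extraction text names colon, while the tissue label names small intestine. The Paneth marker Lyz1, which belongs to small-intestinal crypts, had 3169 and 2346 CPM in GW3965 cultures and 3171 and 2293 CPM in DMSO cultures, and 8 colon markers summed to 28.8 to 31.3 TPM.

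No gene of the 9 was called between GW3965 and DMSO cultures. Of the 8 tested, 0 passed edgeR's quasi-likelihood test with BH adjustment, against 0.0588% of all genes tested, and 0 had an unadjusted p under 0.05, against 1.05%. DESeq2, limma-voom and the other settings tried called none of them either, the lowest adjusted p being 0.446 with 1 library left out. With the mouse as a block edgeR called 0 of 8, against 0.353% of all genes. The fitted log2 fold changes ran from -0.21 to 0.19, with 4 above and 4 below 0 and a median of -0.01, against a median of 0.00 over all genes. Their median size without regard to sign was 0.07, against 0.12 over all genes tested. The 95% interval lay inside a 2-fold change either way for 7 of 8, all but Lrat, against 77% of all genes. Without the GW3965 library of mouse 1 the fitted values of the 8 genes ran from -0.49 for Bco1 to 0.44 for Lrat, again with none called. Across the series, 8 genes were called with all 4 libraries, and 38 to 84 when any 1 library was left out.

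The carotenoid cleavage enzyme and its repressor showed no call. Per-culture values are normalised CPM, that is, counts scaled to TMM-adjusted library sizes. Bco1, which cleaves β-carotene into retinal (chromosome 8, 117095854 to 117133720), had 8.10 and 5.67 CPM in the GW3965 cultures of mouse 1 and mouse 2, against 8.94 and 6.95 CPM in the DMSO cultures of mouse 1 and mouse 2. Each GW3965 culture was below the DMSO culture of its own mouse, but the groups overlapped. The log2 fold change was -0.21 ± 0.28 (SE, 95% interval -0.83 to 0.42, unadjusted p = 0.472, adjusted p = 0.99986, edgeR's quasi-likelihood test with BH adjustment), and it was 0.03 without the GW3965 library of mouse 2. Isx, the homeobox repressor of Bco1 in mice (chromosome 8, 74873173 to 74893506), had 4.99 and 6.03 CPM with GW3965, against 4.21 and 6.63 CPM with DMSO, in mouse 1 and mouse 2. It was higher with GW3965 in mouse 1 and lower in mouse 2, and its log2 fold change was 0.03 ± 0.31 (SE). Scarb1, the scavenger receptor that takes up carotenoids and that ISX also represses in mice, had 9.56 and 10.9 CPM with GW3965, against 12.0 and 8.70 CPM with DMSO. Its 2 mice again differed in sign, at -0.31 and 0.31 on the log2 scale with 0.5 CPM added, and the fitted value was -0.02 ± 0.25 (SE).

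The retinol carrier and the esterifying enzyme showed no call. Rbp2 (chromosome 9, 98486115 to 98509781) had 385 and 467 CPM with GW3965, against 396 and 510 CPM with DMSO, in mouse 1 and mouse 2. Both GW3965 cultures were slightly below their own DMSO culture, and the groups overlapped, with both cultures of mouse 2 above both of mouse 1. The log2 fold change was -0.09 ± 0.25 (SE, unadjusted p = 0.727), with an interval of -0.65 to 0.47, that is, a ratio between 0.639 and 1.38. Lrat (chromosome 3, 82892579 to 82903973, minus strand) had 0.487 and 1.21 CPM with GW3965, against 0.668 and 1.11 CPM with DMSO. It was lower with GW3965 in mouse 1 and higher in mouse 2, and its log2 fold change of -0.05 ± 0.58 (SE) carried an interval of -1.34 to 1.23, so changes beyond 2-fold either way lie inside it.

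The retinol dehydrogenases and retinal reductase gave small differences. Rdh10 (chromosome 1, 16105774 to 16133734) had 163 and 234 CPM with GW3965, against 170 and 211 CPM with DMSO, in mouse 1 and mouse 2. The GW3965 cultures were the lowest and the highest of the 4, the fitted log2 fold change was 0.06 ± 0.25 (SE, 95% interval -0.50 to 0.63), and limma on log2(TPM + 1) gave -0.03 instead. Rdh7, a microsomal dehydrogenase of the same family (chromosome 10, 127884028 to 127888817, minus strand), had 5.60 and 7.61 CPM with GW3965, against 5.08 and 7.00 CPM with DMSO. It was higher with GW3965 in both mice, the groups overlapped, and the log2 fold change was 0.13 ± 0.29 (SE). Its value is uncertain because 20.28% of its distinct 31-base words occur in transcripts of other genes, chiefly Rdh18-ps, Rdh1 and Rdh16f1. Dhrs3, which reduces retinal back to retinol and acts in a complex with RDH10 (chromosome 4, 144892827 to 144928209), had 5.06 and 3.46 CPM with GW3965, against 4.78 and 3.98 CPM with DMSO. The GW3965 cultures were again the highest and the lowest of the 4, with a log2 fold change of -0.04 ± 0.32 (SE).

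Aldh1a1 was the only tested gene of the 9 whose groups did not overlap, against 18.5% of all genes tested in either direction and 9.28% higher with GW3965. It (chromosome 19, 20492715 to 20643465) had 57.7 and 68.7 CPM with GW3965, against 53.4 and 57.4 CPM with DMSO, in mouse 1 and mouse 2. The lower GW3965 culture exceeded the higher DMSO culture by less than 1 CPM, and on the TPM scale the groups overlapped, at 28.2 and 39.8 TPM with GW3965 and 30.9 and 31.4 TPM with DMSO. The log2 fold change was 0.19 ± 0.19 (SE, 95% interval -0.23 to 0.61, unadjusted p = 0.332), and it stayed between 0.06 and 0.31 whichever library was left out. Aldh1a1 shares 13.89% of its 31-base words with Aldh1a7, so its counts are uncertain. Over the 8 tested genes, 4 had the same sign in both mice, against 33.5% of all genes.

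**Figure D2:**
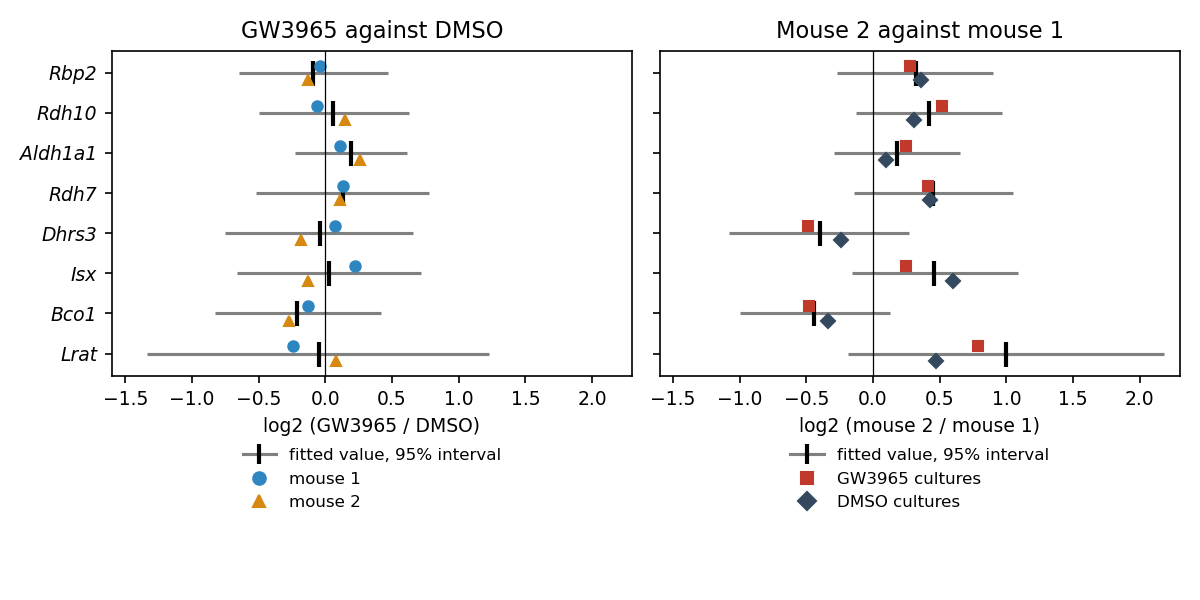
Log2 differences of the 8 tested genes, ordered by TPM, for GW3965 against DMSO (left) and mouse 2 against mouse 1 (right); black ticks are fitted values, grey bars 95% intervals, and coloured points the difference within each mouse or within each treatment. All 8 intervals cross 0 in both panels, fitted values on the left lie between -0.21 and 0.19, and the 2 points of a gene always fall on the same side of 0 on the right.

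The mice differed more than the treatments did for 7 of the 8 tested genes, all but Aldh1a1, where 63% of all genes did the same. Mouse 2 was compared with mouse 1 with treatment as a covariate. Both cultures of mouse 2 lay on one side of both cultures of mouse 1 for 7 of 8 genes, against 41.2% of all genes. Mouse 2 was higher for 5 of them, Rbp2, Lrat, Rdh7, Rdh10 and Isx, and lower for the other 2, Bco1 and Dhrs3, against 21% and 20.2% of all genes. The sign was the same in GW3965 and in DMSO cultures for 8 of 8 genes, against 49.6% of all genes tested. The median log2 difference was 0.37, and 0.43 without regard to sign, against 0.20 without regard to sign over all genes.

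None of these differences was called. edgeR's quasi-likelihood test with BH adjustment called 0 of 8, and 0 had an unadjusted p under 0.05 with edgeR, against 0.684% (0.338% higher and 0.346% lower in mouse 2) and 5.01% of all genes, and the lowest adjusted p of the 8 was 0.996. DESeq2 and limma-voom called none of the 8 either. With 1 residual degree of freedom this test takes each gene's spread from genes of like level, and the gene's own spread does not enter its p. Rbp2 averaged 488 ± 30.7 CPM in mouse 2 and 391 ± 7.76 CPM in mouse 1 (SD, n = 2 each), a log2 difference of 0.32 ± 0.30 (SE). Rdh10 averaged 222 ± 16.3 CPM in mouse 2 and 166 ± 4.88 CPM in mouse 1, a log2 difference of 0.42 ± 0.28 (SE). For both, the lowest culture of mouse 2 stood above the highest of mouse 1.

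The low genes followed with wider errors. Lrat averaged 1.16 ± 0.0658 CPM in mouse 2 and 0.578 ± 0.128 CPM in mouse 1 (SD, n = 2 each), and its log2 difference of 1.00 ± 0.60 (SE, unadjusted p = 0.0987, edgeR's quasi-likelihood test) had the largest size of the 8. Isx averaged 6.33 ± 0.421 CPM in mouse 2 and 4.60 ± 0.554 CPM in mouse 1, with a log2 difference of 0.46 ± 0.32 (SE). Rdh7 averaged 7.30 ± 0.430 CPM in mouse 2 and 5.34 ± 0.367 CPM in mouse 1, with a log2 difference of 0.45 ± 0.30 (SE). In these genes too the cultures of mouse 2 stood above both of mouse 1. Bco1 and Dhrs3 stood the other way: Bco1 averaged 6.31 ± 0.905 CPM in mouse 2 and 8.52 ± 0.591 CPM in mouse 1 (log2 difference -0.44 ± 0.29), and Dhrs3 averaged 3.72 ± 0.364 CPM in mouse 2 and 4.92 ± 0.197 CPM in mouse 1 (-0.40 ± 0.34). Where Isx was higher Bco1 was lower between the mice, but neither difference passed the test, and 4 libraries are fewer than the 6 needed for a correlation. Scarb1, which ISX also represses in mice, differed in sign, at 0.18 among GW3965 cultures and -0.45 among DMSO cultures (log2, mouse 2 from mouse 1). Its fitted value was -0.14 ± 0.26 (SE). The part of Isx in these differences was not tested. DMSO cultures alone leave out the library with the high mitochondrial share. Within them, the differences of the 8 tested genes between mouse 2 and mouse 1 ran from -0.34 for Bco1 to 0.60 for Isx, on the log2 scale with 0.5 CPM added.

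Markers of mature enterocytes also differed between the mice. Of 14, all tested, 12 were higher in mouse 2, against 6760 of all 13602 genes tested, with a median log2 difference of 0.58. At an unadjusted p under 0.05 (edgeR), 7 of the 14 were higher and 1 lower, against 304 and 378 of all genes. Called higher were 2, against 0.338% of all genes: Lct, which encodes lactase (1.75 ± 0.24 SE, adjusted p = 2.74e-10), and Treh, which encodes trehalase (1.29 ± 0.25 SE, adjusted p = 0.000138, both edgeR's quasi-likelihood test with BH adjustment). The summed TPM of the 14 was 5696 and 5200 in the GW3965 and DMSO libraries of mouse 2, and 5829 and 4988 in those of mouse 1, so the sum did not separate the mice, and none of the 14 was at 0 in all libraries. All 5 Paneth cell markers had negative values in mouse 2 with TMM scaling, against 6842 of all genes, with a median of -0.45. Mmp7, the matrilysin of Paneth cells, fell by 1.18 on the log2 scale (SE 0.25, adjusted p = 0.000507, the same test). Over all genes, 0.346% were called lower in mouse 2. The summed TPM of the 5 Paneth cell markers was 34836 and 31829 in the GW3965 and DMSO libraries of mouse 2, and 34411 and 36837 in those of mouse 1. That sum did not separate the mice either. Of 13 immune markers tested, Gzma, a granzyme, was also called lower in mouse 2 (-0.93 ± 0.25 SE, adjusted p = 0.0366), and Itgam, an integrin of myeloid cells and the other immune marker called, had 0 counts in both libraries of mouse 2, against 12.3 estimated counts in each library of mouse 1. The Gzma difference was -1.63 among the GW3965 cultures and -0.22 among the DMSO cultures, and its call was lost with DESeq2 (adjusted p = 0.766), without the filter on low counts (0.0693), with limma on log2(TPM + 1) (0.369) and without the treatment covariate (0.652). The calls of Itgam and Treh were lost with DESeq2 (adjusted p = 0.948 and 0.0769) and without the covariate (0.335 and 0.0632), and that of Mmp7 without the covariate (0.126), while Lct kept its call under every setting tested. No listed marker of stem, goblet, enteroendocrine or tuft cells, of mesenchyme, of the epithelium as a whole or of colon was called in either comparison by edgeR. The part of cell makeup in the retinoid gene differences between the mice was not tested.

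The transcripts behind the gene sums were mostly 1 per gene. Rbp2-201, which starts at 98490537, just after the sequence printed above, gave 94.7 to 96.0% of Rbp2 TPM in the 4 libraries. Transcripts from the upstream start of Rbp2 (Rbp2-202 and Rbp2-204) gave 4.0% in both GW3965 libraries, against 5.2% and 4.1% in the DMSO libraries of mouse 1 and mouse 2. Rbp2-202 itself was estimated at 57.9 and 0.0 counts with GW3965 and at 188.6 and 0.0 counts with DMSO in mouse 1 and mouse 2, so it was listed in the libraries of mouse 1 alone. Rdh10-201 gave 95.6 to 98.8% of Rdh10 TPM, and Bco1-201 gave 95.7% or more of Bco1 TPM. Dhrs3 was the most divided, with its main transcript, a coding one, at 53.9% and 47.8% in the GW3965 libraries of mouse 1 and mouse 2, against 52.1% and 55.3% in the DMSO libraries. Of 29 transcripts annotated for the 9 genes, 24 were in the files, and for Aldh1a1 1 of 6. Single reads of 50 bases leave these splits between transcripts uncertain.

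Beyond the 9 genes, 56 further genes of retinoid metabolism were listed, and 42 could be tested. None was called between GW3965 and DMSO cultures by edgeR's quasi-likelihood test with BH adjustment, by DESeq2 or by limma-voom. An unadjusted p under 0.05 was found for 3 of them with edgeR, 2 with DESeq2 and 1 with limma-voom. Over all 13602 genes these counts were 143 (1.05%) with edgeR, 99 with DESeq2 and 156 with limma-voom. 24 log2 fold changes were above 0 and 18 below, with a median of 0.05. Bco2, a mitochondrial enzyme that cleaves carotenoids off-centre, had 7.37 and 4.83 CPM with GW3965, against 2.98 and 3.82 CPM with DMSO, in mouse 1 and mouse 2. Both GW3965 cultures were above both DMSO cultures, with a log2 fold change of 0.84 ± 0.32 (SE, unadjusted p = 0.0267, adjusted p = 0.99986, edgeR's quasi-likelihood test with BH adjustment), which was 0.51 without the GW3965 library of mouse 1.

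Rdh12, a retinal reductase, had 2.68 and 1.31 CPM with GW3965, against 0.873 and 0.954 CPM with DMSO, with a log2 fold change of 1.11 ± 0.48 (SE, unadjusted p = 0.0446, edgeR), and 0.52 without the GW3965 library of mouse 1. Rdh11, another retinal reductase, had 23.5 and 27.6 CPM with GW3965, against 35.6 and 32.9 CPM with DMSO, and its log2 fold change was -0.42 ± 0.19 (SE, unadjusted p = 0.0497, edgeR). In both genes the groups did not overlap. None of these values survives adjustment over the 13602 genes.

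The largest group on this list held 22 enzymes that interconvert retinol and retinal. Of its 19 tested genes, 10 had groups that did not overlap and 14 had the same sign in both mice. Over all genes tested these shares were 18.5% and 33.5%. Some of the 19 genes share sequence, as Rdh9 does with Rdh16, and kallisto divides such reads, so they are not all independent. Over all 42 tested genes of the list the counts were 11 and 20, and outside this group only Bco2 had groups that did not overlap. Rdh7, Rdh10 and Dhrs3, which share this role in the chosen set, had groups that overlapped. Among the 19 genes, 12 log2 fold changes were above 0 and 7 below. Akr1b8, an aldo-keto reductase of aldehydes, had 584 and 580 CPM with GW3965, against 478 and 343 CPM with DMSO, a log2 fold change of 0.50 ± 0.25 (SE, unadjusted p = 0.0748, edgeR). As for Bco2 and Rdh12, both GW3965 cultures lay above both DMSO cultures. Its relative Akr1b7 had 10.6 and 12.5 CPM with GW3965, against 8.42 and 10.7 CPM with DMSO, where the groups narrowly overlapped. Adh7, a retinol-oxidising alcohol dehydrogenase, had a log2 fold change of 0.60 ± 0.42, Rdh9 of 0.62 ± 0.33, and Sdr16c5, a retinol dehydrogenase, of -0.61 ± 0.45 (SE each). With 1 library left out, Akr1b8 lay between 0.28 and 0.76 and Rdh9 between 0.23 and 0.92. Rdh9 is uncertain, as 71.62% of its 31-base words occur in Rdh16f1, Rdh16, Rdh19 and other genes.

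**Figure D3:**
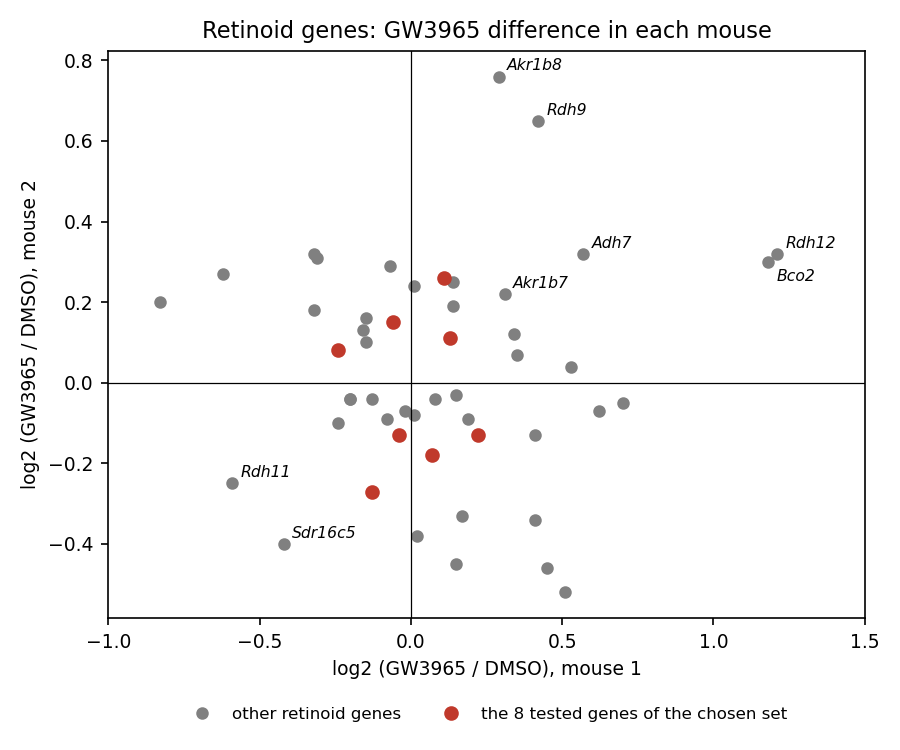
Log2 difference of GW3965 from DMSO in mouse 1 (horizontal) and in mouse 2 (vertical), with 0.5 CPM added, for 42 further retinoid genes in grey and the 8 tested genes of the chosen set in red. Bco2 and Rdh12 lie far to the right at 1.18 and 1.21 in mouse 1 but at 0.30 and 0.32 in mouse 2, Akr1b8 and Rdh9 are highest in mouse 2 at 0.76 and 0.65, and the red points stay within 0.27 of 0 in both mice.

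Between the mice, 1 of these 42 genes was called higher in mouse 2, against 0.338% of all genes tested. Plb1, a brush border phospholipase that also hydrolyses retinyl esters, had 11.5 and 10.5 CPM in the GW3965 and DMSO cultures of mouse 2, against 3.78 and 4.26 CPM in those of mouse 1. Both cultures of mouse 2 stood far above both of mouse 1, and Plb1 rose by 1.45 ± 0.29 on the log2 scale in mouse 2 (SE, adjusted p = 0.00028, edgeR's quasi-likelihood test with BH adjustment).

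The call of Plb1 depended on the test. Its adjusted p was 0.18 with DESeq2, 0.198 with limma on log2(TPM + 1) and 0.0826 without the treatment covariate, while limma-voom gave 0.00262. The sign was the same under all of these. With GW3965 against DMSO, Plb1 had a log2 fold change of 0.06 ± 0.51 (SE).

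**Figure D4:**
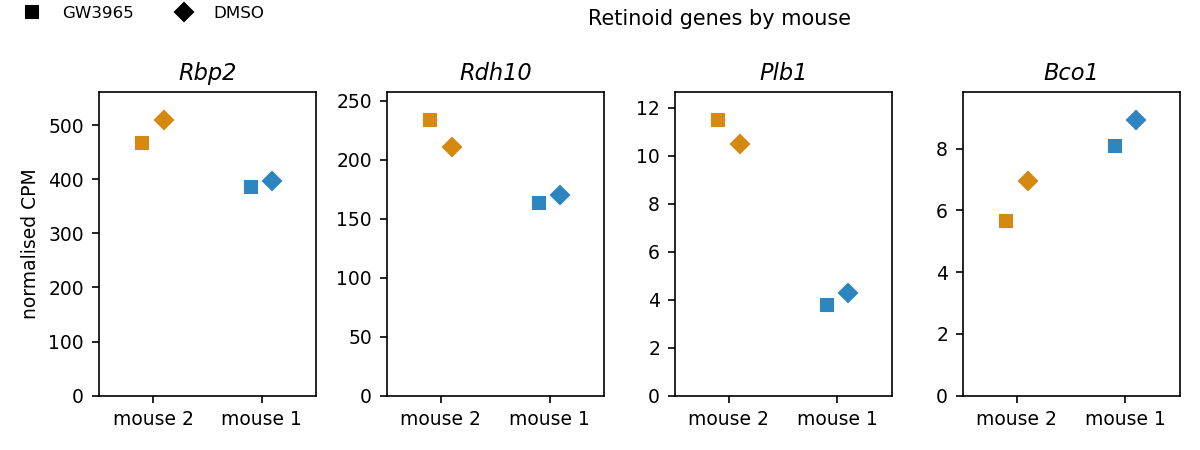
Normalised CPM of Rbp2, Rdh10, Plb1 and Bco1 in the 4 libraries, mouse 2 left of mouse 1 in each panel, GW3965 as squares and DMSO as diamonds, every axis starting at 0. Rbp2, Rdh10 and Plb1 are higher in both cultures of mouse 2, at 467 to 510, 211 to 234 and 10.5 to 11.5 CPM, and Bco1 is lower, at 5.67 to 6.95 CPM.

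Retinoic acid response was read from 15 listed targets, of which 9 were tested. Dhrs3, Isx, Lrat and the untested Crabp2 are on this list too, so in part it repeats the result given for them above. None was called with GW3965 by edgeR, DESeq2 or limma-voom, 0 had an unadjusted p under 0.05 with any of these, and 3 values were above 0 and 6 below. The median log2 fold change was -0.05. Cdx1, an intestinal homeobox gene, had 54.0 and 72.0 CPM with GW3965, against 86.1 and 71.6 CPM with DMSO, in mouse 1 and mouse 2. The difference between the cultures lay in mouse 1, and the log2 fold change was -0.32 ± 0.21 (SE, unadjusted p = 0.158, edgeR). Tgm2, tissue transglutaminase, had a log2 fold change of -0.20 ± 0.22, Hic1 of 0.79 ± 0.54 and Hoxb4 of 0.53 ± 0.58 (SE each), and each differed in sign between the mice. With 1 library left out, Cdx1 lay between -0.55 and -0.13, Hic1 between 0.13 and 1.27 and Hoxb4 between 0.10 and 1.12. The 4 tested receptors had a median of -0.10, and Rara, the retinoic acid receptor α, had 20.8 and 27.9 CPM with GW3965, against 26.0 and 24.5 CPM with DMSO, a log2 fold change of -0.05 ± 0.20 (SE).

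Rarb, Cyp26a1 and Cyp26b1, classical readouts of strong retinoic acid signalling, were close to absent. Other targets on the same list were expressed, such as Cdx1 at a mean of 46.8 TPM and Tgm2 at 16.7 TPM. Rarb, a retinoic acid receptor that retinoic acid induces, had 2.0 and 0.0 estimated counts with GW3965, against 4.0 and 1.0 with DMSO. Cyp26a1, which breaks retinoic acid down, had 0.0 and 0.0 counts with GW3965, against 1.0 and 0.0 with DMSO, and Cyp26b1 had 6.0 and 1.0 with GW3965, against 0.0 and 0.0 with DMSO. Aldh1a2, a retinal dehydrogenase of stroma and embryo, had 1.0 count in 1 DMSO library and 0.0 in the other 3. Stra6, Rbp3, Pnlip and Rdh8 had 0 counts in all 4 libraries. Without the filter on low counts 14 of the 15 targets were tested, and none was called by edgeR (BH adjustment). Among them 1, Cyp26b1, had an unadjusted p under 0.05, from 7.0 counts over both GW3965 libraries.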

How the data were processed

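RNA was measured in 4 libraries. Per the submitters' processing notes, kallisto (no version), CASAVA 1.7, FastQC and the build mm10 were used. The sources used here give neither the annotation release nor the use of strand. Per the file headers, the authors deposited estimated counts and TPM per transcript for each library, with transcript lengths in bases. They also deposited the estimated counts rounded to whole numbers in 1 table, and log2 CPM for 8524 gene symbols, whose filter and scaling are not given. That log2 table was not used for tests.

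Of 88198 transcripts, 86119 (97.6%) matched GENCODE M21 (GRCm38). Their estimated counts were summed per gene and rounded. Unmatched transcripts held 0.69 to 0.85% of a library's counts and stayed out of library sizes and tests. Genes were tested in R 4.3.3 with edgeR 4.0.16 (filterByExpr, TMM, glmQLFit, glmQLFTest) at a Benjamini-Hochberg adjusted p under 0.05 over 13602 genes, for GW3965 against DMSO with no block (residual degrees of freedom 2, prior 7.78), and for mouse 2 against mouse 1 with treatment as covariate. Intervals are 95%, and errors of log2 values are standard errors. DESeq2 1.42.0, limma 3.58.1 and other filters and scalings were alternatives, and the test was checked on simulated data. Libraries with the same number share a mouse, as the labels state. Their deviations from the group means correlated at 0.093 across genes. Every pair of libraries differed beyond sampling noise (chi-square over degrees of freedom, 10.7 to 78.3). kallisto divides reads that fit several transcripts, so shared 31-base words were counted for the named genes.

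The genes and lists were chosen with earlier results of these data known. Named are the 9 genes, listed retinoid genes and retinoic acid targets past the threshold or among the 8 and the 4 with the smallest p for GW3965, plus Scarb1, Rara and Rarb, called or most abundant markers, and 3 LXR targets. Genes too low to test, and Lyz1 as a check of the tissue, are named besides. 1 gene that this rule names is not reported here.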

Additional observations from a re-analysis of the deposited data

How the results depend on the processing

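For GW3965 against DMSO, 8 genes were called, against 20 with DESeq2, 20 with limma-voom, 14 without the filter on low counts, 15 with limma on log2(TPM + 1), and 38 to 84 with 1 library left out. With the mouse as replicate block, edgeR called 48 and DESeq2 12, and the block changed no call of the 8 tested retinoid genes (lowest adjusted p = 0.99988 with edgeR). Between the mice 93 genes were called, against 28 with DESeq2 and 10 without the treatment covariate. No test was possible between the mice with a library left out, which leaves no residual degree of freedom. The cause of these shifts was not tested.

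The log2 fold change of Rdh10 turned to -0.03, and that of Plb1 to -0.02, with limma on log2(TPM + 1), and Plb1 gave -0.01 with the replicate block in DESeq2. Under the other settings that kept all libraries, 70 of 71 values of the 8 genes kept their sign and side of the threshold. With 1 library left out, 13 of 32 turned sign. The ranges were -0.26 to 0.1 for Rbp2, -0.86 to 0.44 for Lrat, -0.49 to 0.03 for Bco1, -0.11 to 0.37 for Rdh7, -0.23 to 0.3 for Rdh10, -0.34 to 0.21 for Dhrs3 and -0.26 to 0.38 for Isx. They were -0.96 to 0.85 for Plb1, -0.28 to 0.14 for Rara, -0.24 to 0.24 for Scarb1 and -0.53 to 0.07 for Tgm2. Differences between the mice kept their sign in 63 of 63 values of the 8 genes, counted per gene and setting over settings that refit the same 4 libraries. Rescaled without mitochondrial genes, mean TPM was 1079 for Rbp2, 38.6 for Aldh1a1, 4.71 for Dhrs3, 4.26 for Isx and 0.307 for Crabp2. Limma on log2(TPM + 1) could not be run for Lrat, which lies below its minimum of 1 TPM.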

Other observations

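The authors' deposited table of log2 CPM holds 3 of the 9 genes. In the authors' deposited table, Rbp2 stands at 8.93 and 8.85 in the GW3965 libraries of mouse 1 and mouse 2, against 8.88 and 9.04 in the DMSO libraries. There Rdh10, in the authors' deposited table, stands at 7.70 and 7.82 with GW3965, against 7.68 and 7.66 with DMSO, and Aldh1a1 at 6.10 and 6.16 with GW3965, against 5.97 and 5.95 with DMSO. Over 8455 symbols found in both, the median size of the difference between the mice was 0.016 on the log2 scale in the authors' deposited table, against 0.163 computed from the counts. For GW3965 against DMSO these medians were 0.059 in the authors' deposited table and 0.099 computed from the counts. In the authors' deposited table Rbp2 with GW3965 and Rdh10 with DMSO are lower in mouse 2 than in mouse 1, whereas the counts place both higher in mouse 2. How that table was scaled was not tested.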
